A study of Mus musculus with 6 samples.

Results

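Monocyte subset genes were followed in sorted CD45+ cells of the mouse spleen and mesenteric lymph node (mLN). CD45, the product of Ptprc, is a surface phosphatase of nearly all leukocytes. The set was given as 10 gene symbols, listed by name with no cutoff on values but with earlier results of these data known, and all 10 were found among 55487 gene identifiers in the tables. Of these, 3 stood for classical monocytes (Fn1, F13a1 and Cd14), 3 for patrolling monocytes (Ace, Treml4 and Adgre4) and 4 are expressed in both kinds or in other myeloid cells as well (Csf1r, Lyz2, Cebpb and Pglyrp1). Both groups of samples were total hematopoietic cells of WT C57BL6/J mice, freshly prepared with no treatment named, and they differed only in the tissue. There were 3 polyA RNA libraries from spleen and 3 from mLN. The labels give no age, sex or number of animals, so p-values measure the spread between these libraries, which may be technical.

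Monocytes are made in the bone marrow under the growth factor receptor Csf1r and circulate in blood as a pair of main subsets. Classical (Ly6C-high) monocytes enter tissues and can become macrophages or dendritic cells, while patrolling (Ly6C-low) monocytes crawl along the inner wall of vessels, arise from classical cells and depend on the nuclear receptor Nr4a1. The spleen is filled with blood and is known to hold a reservoir of both subsets in its red pulp, whereas a lymph node receives cells mostly through lymph and high endothelial venules.

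The libraries held 12584244 to 18119551 expected counts, and all 10 genes passed the filter on low counts. Across genes (not independent points), log2 CPM (counts per 1000000 counts of the library) correlated with Pearson coefficients of 0.984 to 0.989 within a tissue. Libraries of a tissue differed by 2.52 to 2.97 times the median squared difference of pure counting, so none was treated as a duplicate. Ptprc, the gene of the sorted antigen, had a mean of 2191 CPM (SD 39.0) in spleen and 2675 CPM (SD 35.0) in mLN, with n = 3 in each tissue. In these sorted bulk samples, fewer cells of a type and less RNA per cell cannot be told apart.

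The stretches just before the start sites of the 3 patrolling genes and of the classical gene F13a1 are shown because these genes were all lower in mLN, by amounts that differed between them. A window was read for 7 of the 10 genes. None was read for Csf1r, Cd14 or Fn1, so the matches below do not cover these genes. Each window runs 250 bases up to the RefSeq start (build GRCm38.p6). Capitals mark matches to the PU.1 core GAGGAA or to the C/EBP pattern TTGCNNAA, searched on both strands.
Ace, chr11:105967698-105967947, plus strand: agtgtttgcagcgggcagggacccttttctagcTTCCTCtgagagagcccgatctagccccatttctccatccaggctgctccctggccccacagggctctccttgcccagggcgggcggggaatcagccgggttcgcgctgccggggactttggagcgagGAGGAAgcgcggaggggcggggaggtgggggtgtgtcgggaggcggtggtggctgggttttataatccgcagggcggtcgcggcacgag
Treml4, chr17:48264045-48264294, plus strand: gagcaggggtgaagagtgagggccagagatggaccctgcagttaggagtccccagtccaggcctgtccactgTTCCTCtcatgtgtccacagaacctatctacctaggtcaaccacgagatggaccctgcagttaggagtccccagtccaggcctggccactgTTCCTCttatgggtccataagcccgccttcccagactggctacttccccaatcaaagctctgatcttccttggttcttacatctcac
Adgre4, chr17:55749734-55749983, plus strand: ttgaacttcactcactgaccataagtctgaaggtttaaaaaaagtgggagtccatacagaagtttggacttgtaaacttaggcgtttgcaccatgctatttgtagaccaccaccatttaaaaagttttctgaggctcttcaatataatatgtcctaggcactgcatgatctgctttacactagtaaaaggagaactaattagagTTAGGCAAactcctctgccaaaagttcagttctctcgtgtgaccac
F13a1, chr13:37050245-37050494, minus strand: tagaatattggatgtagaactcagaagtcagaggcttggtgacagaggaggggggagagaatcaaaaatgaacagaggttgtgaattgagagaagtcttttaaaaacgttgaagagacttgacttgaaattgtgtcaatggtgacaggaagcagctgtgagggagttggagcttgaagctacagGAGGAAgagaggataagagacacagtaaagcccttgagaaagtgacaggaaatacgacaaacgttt
The PU.1 core was found in the windows of Ace (2 matches), Treml4 (2), F13a1 (1) and Pglyrp1 (2). It was not found in those of Adgre4, Cebpb and Lyz2. Among all 32851 RefSeq promoter windows of this length 23.3% held it. The Pglyrp1 window (chr7:18884440-18884689) ends at a RefSeq start inside the gene extent given below, not at its outer end. The C/EBP pattern matched once, in Adgre4, ending 39 bases before the start, and 9.56% of all windows held it. The Nr4a1 half-site AAGGTCA matched in 0 of these 7 windows and in 4.08% of all. In Treml4 both PU.1 matches followed copies of an identical 40-base stretch (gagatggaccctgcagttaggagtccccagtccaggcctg) placed 91 bases apart. A match of letters is not a measured binding site.

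Of the 10 genes, 9 fell in mLN, against 23.8% of all 14427 genes tested called lower and 21.8% called higher by the same test. The exception was Cd14, whose libraries overlapped, and all 10 log2 fold changes were below 0. The falls ran from 1.16-fold in Csf1r to 3.78-fold in Ace, with a median log2 fold change (mLN over spleen) of -0.99 over the 10 genes and -0.0018 over all genes tested. A fall of 2-fold or more was seen in 5 of the 10 (8.6% of all genes tested), namely Ace, F13a1, Pglyrp1, Fn1 and Treml4. In 9 of the 10 genes all mLN libraries lay below all spleen libraries in CPM (27.5% of all genes tested). Together the 10 genes took 12.4 ± 0.0833 of every 10000 counts in spleen (SD, n = 3) and 7.25 ± 0.119 in mLN (SD, n = 3).

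**Figure D1:**
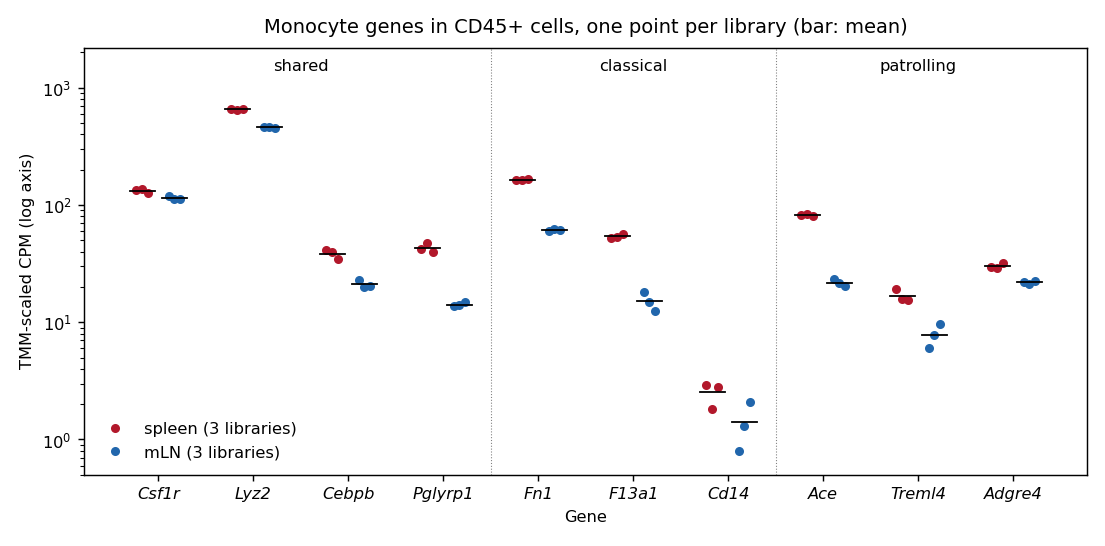
TMM-scaled CPM (log axis) of each gene in the 3 spleen (red) and 3 mLN (blue) libraries, with a bar at the mean of each tissue. The red points lie above the blue points without overlap for 9 genes, and the Cd14 points overlap.

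Ace encodes the angiotensin-converting enzyme, a membrane peptidase, and is a gene of patrolling monocytes (chromosome 11, 105967945 to 105989964, GRCm38, plus strand). It was at 81.9, 84.2 and 81.2 CPM in the spleen libraries and at 23.4, 21.5 and 20.3 CPM in the mLN libraries. The spleen values lay within a narrow band, and every mLN library lay far below it. Its fall of 3.78-fold (log2 fold change -1.92, SE 0.0717, adjusted p = 6.40e-25) was the largest among the 10 genes, and 3.52% of all genes tested had a lower log2 fold change.

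Treml4, a receptor of the Trem family known from patrolling monocytes and some dendritic cells of the spleen (chromosome 17, 48264295 to 48275360, plus strand), was at 19.3, 15.9 and 15.5 CPM in spleen. In mLN it was at 6.07, 7.82 and 9.64 CPM. The mLN libraries differed among themselves more than the spleen libraries did in relation to their mean, but stayed below them. The fall was 2.17-fold (log2 fold change -1.12, SE 0.148, adjusted p = 2.83e-08).

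Adgre4, an adhesion receptor of the EGF-TM7 family related to the macrophage antigen F4/80 (chromosome 17, 55749984 to 55853662, plus strand), was at 29.7, 29.0 and 31.7 CPM in spleen and at 22.2, 21.1 and 22.6 CPM in mLN. Both tissues were tight and did not overlap. Its fall of 1.37-fold (log2 fold change -0.46, SE 0.0902, adjusted p = 4.32e-05) was the smallest of the 3 patrolling genes, and mLN kept 72.9% of the spleen level where it kept 26.4% for Ace.

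Among the classical genes, Fn1 encodes fibronectin, an adhesive glycoprotein of matrix and plasma (chromosome 1, 71585520 to 71653200, minus strand). It was at 165, 162 and 165 CPM in spleen and at 59.6, 62.4 and 60.9 CPM in mLN, with little spread in either tissue. The fall was 2.69-fold (log2 fold change -1.43, SE 0.0447, adjusted p = 1.44e-27). F13a1 encodes the catalytic A subunit of coagulation factor XIII, a transglutaminase that crosslinks fibrin and fibronectin (chromosome 13, 36867178 to 37050244, minus strand). It was at 52.0, 53.1 and 56.8 CPM in spleen and at 18.01, 14.8 and 12.6 CPM in mLN. The mLN libraries spread widely but none came near the spleen values, and the fall was 3.55-fold (log2 fold change -1.83, SE 0.0929, adjusted p = 3.60e-20).

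Cd14, the co-receptor that hands lipopolysaccharide to the Tlr4 complex (chromosome 18, 36725067 to 36726798, minus strand), was scarce. It had 51, 30 and 47 counts in the spleen libraries and 12, 23 and 26 in the mLN libraries, or 2.93, 1.83 and 2.81 CPM against 0.801, 1.29 and 2.11 CPM. The highest mLN library lay above the lowest spleen library. The log2 fold change was -0.87 (SE 0.384, adjusted p = 0.0618), which missed the threshold at this depth and does not show equal levels. Without spleen replicate 2 it was -1.05 (adjusted p = 0.049) and without mLN replicate 3 it was -1.249 (adjusted p = 0.0163). These were the lowest spleen and the highest mLN library, so leaving out either had to widen the difference. Over all 13 alternatives the log2 fold change ran from -1.249 to -0.59, with an adjusted p of up to 0.249. With a filter of at least 1 CPM in every library of a tissue the value was -0.88 (adjusted p = 0.0373). Cd14 passed that filter through spleen only, so this adds no support for a fall.

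**Figure D2:**
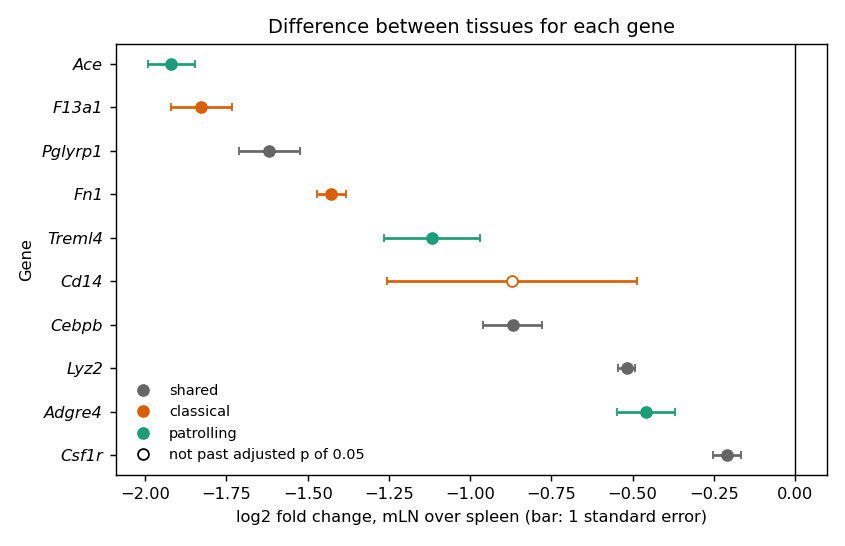
Log2 fold change of mLN over spleen (x axis, bars of 1 standard error) for each gene, coloured as classical, patrolling or shared, with an open symbol where the adjusted p was above 0.05. The classical and patrolling genes interleave between -0.46 (Adgre4) and -1.92 (Ace), and the shared genes run from -0.21 (Csf1r) to -1.62 (Pglyrp1).

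Csf1r, the receptor for the growth factors Csf1 and Il34 that monocytes and macrophages need (chromosome 18, 61100598 to 61132149, plus strand), fell least. It was at 135, 136 and 127 CPM in spleen and at 120.3, 111 and 113 CPM in mLN. The lowest spleen library was close to the highest mLN library, without overlap. The fall was 1.16-fold (log2 fold change -0.21, SE 0.0429, adjusted p = 7.44e-05). Its neighbour Hmgxb3 overlaps it on the opposite strand with 988 to 1259 counts a library, and no label names the strand setting of the counting, so a part of its counts is uncertain.

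Cebpb, a transcription factor of the C/EBP family that patrolling monocytes need to survive (chromosome 2, 167688915 to 167690418, plus strand), was at 41.4, 39.5 and 34.4 CPM in spleen and at 22.9, 19.8 and 20.6 CPM in mLN. The tissues were apart, and the fall was 1.83-fold (log2 fold change -0.87, SE 0.0901, adjusted p = 7.05e-11). The gene Tmem189, with 792 to 1061 counts a library, overlaps it on the opposite strand. Pglyrp1, a secreted protein that binds bacterial peptidoglycan and is stored in neutrophil granules (chromosome 7, 18871331 to 18890459, plus strand), was at 42.4, 47.8 and 39.7 CPM in spleen. In mLN it was at 13.7, 13.9 and 14.7 CPM, far below every spleen library, a fall of 3.07-fold (log2 fold change -1.62, SE 0.0932, adjusted p = 1.41e-18).

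Lyz2 encodes lysozyme M, which cuts bacterial cell walls and is made by monocytes, macrophages and neutrophils (chromosome 10, 117277331 to 117282321, minus strand). It was at 664, 652 and 661 CPM in spleen and at 465, 459 and 456 CPM in mLN. Both tissues were tight and well separated, and the fall was 1.43-fold (log2 fold change -0.52, SE 0.0270, adjusted p = 4.91e-20). Its neighbour Lyz1, the lysozyme gene of intestinal Paneth cells, went the other way, from 22, 20 and 15 counts in the spleen libraries to 75, 66 and 45 in the mLN libraries (log2 fold change 1.86, SE 0.330, adjusted p = 7.93e-06). Of the counts of both genes, Lyz1 held 0.171 ± 0.0306% in spleen (SD, n = 3) and 0.887 ± 0.154% in mLN (SD, n = 3). The coding sequences are 447 bases long and 95.1% identical, with 22 differing bases and an identical run of 118 bases. Reads that match both are assigned by a model. The expected counts of both genes were whole numbers in all 6 libraries, so no fractional split is seen. Whether reads went to the wrong copy was not tested, so the Lyz1 values stay uncertain. The stretch that holds most of the differences, coding bases 43 to 132 with 13 differing bases in capitals (GENCODE M21 transcripts), is shown to give what tells the copies apart.
Lyz1: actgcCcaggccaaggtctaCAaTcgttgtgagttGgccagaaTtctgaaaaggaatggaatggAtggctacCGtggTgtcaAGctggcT
Lyz2: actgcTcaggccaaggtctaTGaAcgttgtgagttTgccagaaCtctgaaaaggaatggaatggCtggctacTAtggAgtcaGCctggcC
The Lyz1 counts were few beside those of Lyz2, which stood at 10696 to 11548 in spleen and 5630 to 8155 in mLN.

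Levels of different genes were compared on the deposited TPM, which accounts for transcript length. In spleen the order from high to low was Lyz2 (893 ± 10.5 TPM, SD, n = 3), Pglyrp1 (134 ± 12.96), Csf1r (54.6 ± 3.60), Cebpb (44.5 ± 4.18), Fn1 (41.6 ± 1.95), Ace (30.0 ± 0.913), F13a1 (22.0 ± 1.16), Treml4 (20.2 ± 1.60), Adgre4 (13.7 ± 0.680) and Cd14 (2.88 ± 0.853). The ranges of Cebpb and Fn1 overlapped, as did those of F13a1 and Treml4, and all other neighbours were apart. In mLN the order was Lyz2 (600.4 ± 6.46 TPM), Csf1r (45.6 ± 1.82), Pglyrp1 (41.6 ± 1.59), Cebpb (23.5 ± 1.80), Fn1 (13.6 ± 2.81), Treml4 (10.01 ± 3.23), Adgre4 (9.64 ± 0.342), Ace (7.67 ± 0.540), F13a1 (6.76 ± 1.58) and Cd14 (1.67 ± 0.666). There Fn1 overlapped Treml4, Treml4 overlapped Adgre4, and Ace overlapped F13a1. Ace stood above Treml4 and Adgre4 in spleen and was the lowest of the patrolling genes by mean in mLN. Lyz2 made up 71.0 ± 1.18% of the summed TPM of the 10 genes in spleen and 78.9 ± 0.605% in mLN, Csf1r 4.35 ± 0.260% and 5.995 ± 0.209%, and Pglyrp1 10.7 ± 0.960% and 5.48 ± 0.223%.

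The balance of classical to patrolling genes was taken in each library as the mean log2 CPM of Fn1, F13a1 and Cd14 minus that of Ace, Treml4 and Adgre4, a quantity in which library scaling cancels. It was -0.28, -0.41 and -0.18 in the spleen libraries and -0.57, -0.49 and -0.46 in the mLN libraries. All mLN libraries were lower, by 0.21 in the mean, while each term of the balance fell by far more, the classical mean by 1.38 and the patrolling mean by 1.16 on the log2 scale. No test was made of this score, since its genes were chosen with results of these data known.

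The single pairs did not all shift with the balance. Of the 9 ratios of a classical to a patrolling gene, 2 were lower in every mLN library, 2 were higher in every mLN library and 5 overlapped between tissues. The log2 ratio of F13a1 to Adgre4 was 1.39 lower in mLN (0.84 ± 0.0305 in spleen against -0.55 ± 0.273 in mLN, SD over 3 libraries each), and that of Fn1 to Adgre4 was 0.97 lower (2.44 ± 0.0561 and 1.47 ± 0.0799). The ratio of Fn1 to Ace moved the other way, from 0.99 ± 0.0419 to 1.48 ± 0.122. The ratio of Cd14 to Ace was also higher in mLN, from -4.99 ± 0.384 to -3.93 ± 0.734. The Cd14 counts in it are sparse, and the highest spleen library (-4.75) lay close to the lowest mLN library (-4.66). The ratio of F13a1 to Ace, at -0.61 ± 0.0829 in spleen and -0.53 ± 0.159 in mLN, differed by less than its spread. Ace and Adgre4, both patrolling genes, stood further apart in log2 fold change (-1.92 and -0.46) than the subset means did.

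**Figure D3:**
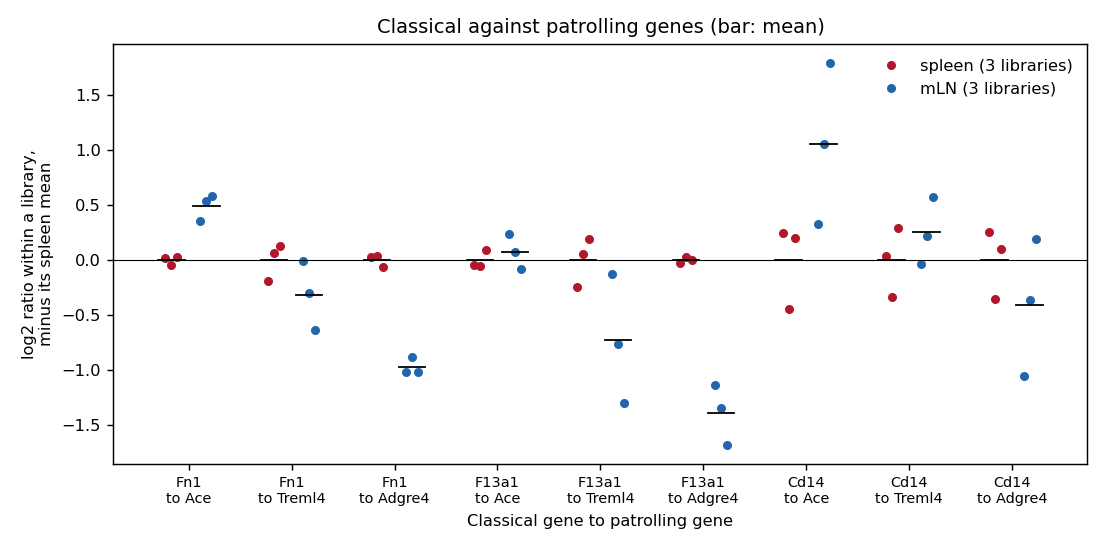
Log2 ratio of each classical to each patrolling gene within a library, shown as the deviation from its mean in spleen (y axis), with 1 point per library and a bar at the tissue mean. Ratios to Adgre4 lie below 0 in mLN for Fn1 and F13a1, ratios to Ace lie above 0 in mLN for Fn1 and Cd14, and the other 5 overlap.

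Set against Csf1r in the same library, 8 of the other 9 genes were lower in every mLN library than in every spleen library, and Cd14 overlapped. Of all 14426 other genes tested, 16.1% had a ratio to Csf1r that was lower in every mLN library. Csf1r fell least of the set (log2 fold change -0.21), so the mean ratios of the other members to it had to drop. The drops are therefore no result separate from the falls given above, also when set beside the share of all genes. A part of the Csf1r counts is uncertain because of the overlapping gene Hmgxb3, and so are these ratios. The log2 ratio to Csf1r dropped by 1.71 for Ace, 1.63 for F13a1, 1.39 for Pglyrp1 and 1.22 for Fn1. It dropped by 0.90 for Treml4, 0.65 for Cebpb, 0.31 for Lyz2 and 0.24 for Adgre4. Adgre4 and Lyz2 thus stayed closest in proportion to Csf1r.

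Other genes of classical monocytes were taken from a list of 18, all tested, of which 12 fell, 4 rose and 2 were not called (median log2 fold change -0.74). Ifitm6 fell from 10.4 ± 0.724 to 2.04 ± 0.269 CPM, and the C-type lectin gene Clec4d from 3.35 ± 0.472 to 0.320 ± 0.290 CPM (SD, n = 3 each). Ly6c2, which encodes the antigen that gives classical monocytes their name but is also made by T cells, rose from 149 ± 12.9 to 250.4 ± 11.6 CPM, and its close copy Ly6c1 can share reads with it. Ms4a6d rose from 4.78 ± 0.496 to 11.4 ± 0.366 CPM. Which cells gave the counts of these listed genes, fallers and risers alike, was not tested.

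Of 20 other genes of patrolling monocytes, all tested, 15 fell, 2 rose and 3 were not called (median -0.97). The receptor gene Cd300e fell from 12.1 ± 2.16 to 0.427 ± 0.273 CPM and the fatty acid carrier gene Fabp4 from 2.08 ± 0.336 to 0.172 ± 0.0930 CPM. Their log2 fold changes were -4.88 and -3.50, beyond that of any of the 10 genes. Nr4a1, on which these cells depend, fell by 0.43 on the log2 scale, and the fractalkine receptor gene Cx3cr1 by 0.92. The risers were Spn, at 0.32, and the integrin gene Itgal, at 0.18, both of which lymphocytes express as well. The cell source of the genes that fell was not tested either.

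**Figure D4:**
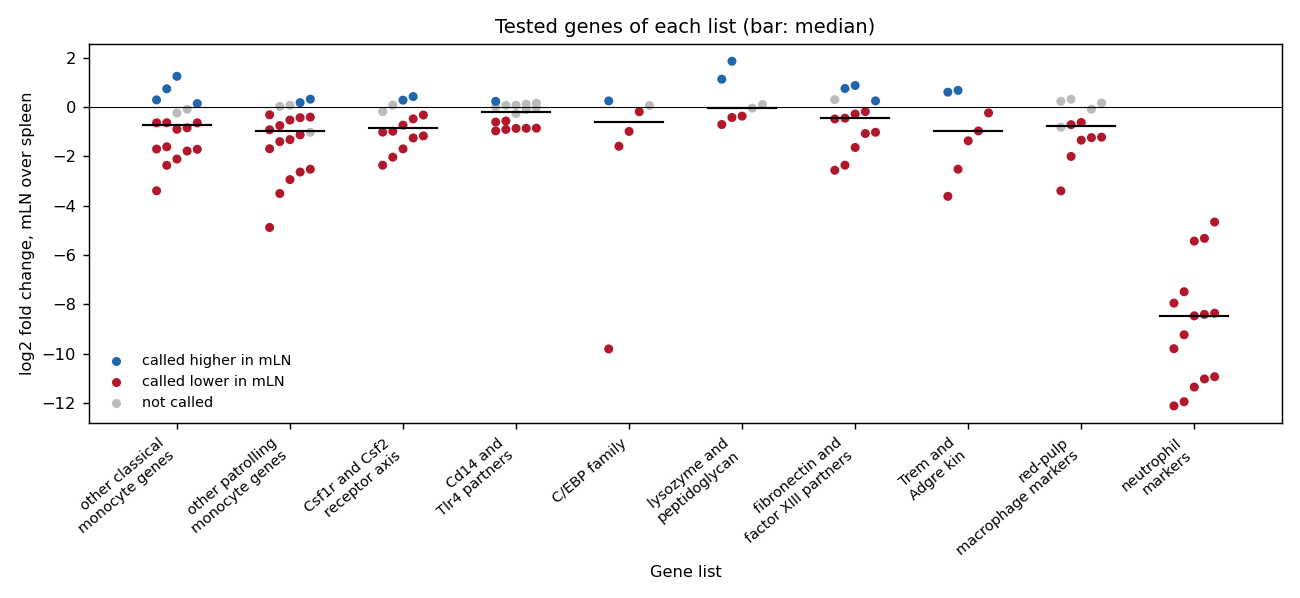
Log2 fold change of mLN over spleen (y axis) for the tested genes of each list, 1 point per gene, coloured by the call, with a bar at the median. The other classical and patrolling genes have medians of -0.74 and -0.97, and the neutrophil markers lie between -12.12 and -4.66.

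In the list around the Csf1r and Csf2 receptors 10 of 14 tested genes fell and 2 rose (median -0.85). Csf3r, the receptor for the granulocyte growth factor, fell from 74.6 ± 2.31 to 14.6 ± 0.346 CPM and the stem cell factor receptor gene Kit from 26.7 ± 2.44 to 6.47 ± 1.43 CPM. The growth factor gene Csf1 had a log2 fold change of -1.69 and Spi1, which encodes PU.1, of -1.01. The transcription factor gene Maf rose by 0.28. Il34, Csf2 and Csf3 did not pass the filter.

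Of the 16 genes listed around Cd14 and lipopolysaccharide sensing, all tested, 7 fell, 1 rose and 8 were not called (median -0.18). The list also took Tlr1, Tlr2, Tlr6, Cd180 and Ly86, so these counts are not of lipopolysaccharide partners alone. Tlr4 itself had a log2 fold change of -0.85, and the adaptor gene Ticam2 fell from 14.6 ± 1.41 to 7.53 ± 1.05 CPM. Lbp was called at -0.90 (adjusted p = 0.0190), a call lost with the effective-length offset (adjusted p = 0.686) and without spleen replicate 2 (0.126) or mLN replicate 1 (0.1265). Traf6, a ubiquitin ligase of this pathway, rose by 0.24. In the list around the C/EBP family, which took Cebpz by its name, 4 of 6 genes fell and 1 rose (median -0.58). Cebpe, a factor of granulocyte maturation, was at 7.03 ± 2.22 CPM in spleen and had 0 counts in mLN, which puts it at least 106-fold lower against a floor of 3 counts over the mLN libraries. Cebpd fell from 8.96 ± 0.581 to 2.96 ± 0.267 CPM, and Cebpz rose by 0.25.

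Among lysozyme and peptidoglycan genes, 3 of 7 tested fell and 2 rose (median -0.04). Pglyrp2, an amidase related to Pglyrp1, rose from 59.0 ± 1.63 to 129.6 ± 2.20 CPM (log2 fold change 1.13, adjusted p = 8.11e-23), opposite to Pglyrp1, while Card9 and the muramyl dipeptide sensor gene Nod2 had log2 fold changes of -0.70 and -0.42. In the list of fibronectin receptors and clotting partners 9 of 13 tested genes fell and 3 rose (median -0.45). Thbd fell from 7.87 ± 1.254 to 1.33 ± 0.343 CPM and F5 from 6.37 ± 0.397 to 1.24 ± 0.150 CPM, whereas the integrin genes Itgb3 and Itgb7 rose by 0.88 and 0.76. Of 7 tested kin of Treml4 and Adgre4, 5 fell and 2 rose (median -0.96). Trem1 and Trem3 had log2 fold changes of -3.62 and -2.52, and Treml2, a receptor also present on B cells, and the adaptor gene Hcst rose by 0.61 and 0.68. Of 9 genes around Ace, 3 were tested and 2 fell. The angiotensin receptor gene Agtr1a, at 0.946 ± 0.303 CPM in spleen, had 0 counts in mLN, which puts it at least 14.2-fold lower, and the call of Anpep (-0.51, adjusted p = 0.00173) was lost with the effective-length offset (adjusted p = 0.508).

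Several of the 10 genes are known in cells other than monocytes, and markers of those cells moved as well. All 15 neutrophil markers fell, and their summed level was 1657 to 1697 CPM in the spleen libraries and 5.18 to 6.005 CPM in the mLN libraries, with Elane, Ctsg and Ly6g at 0 counts in mLN. The falls of Pglyrp1, Lyz2, Cebpb and F13a1, which neutrophils or their precursors can express, came beside this, and its part in them was not tested. The part of neutrophils in the falls of the other listed monocyte genes was not tested either. In the mLN libraries, where the neutrophil markers stood at that level, Lyz2 was at 460.0 ± 4.88 CPM and Pglyrp1 at 14.1 ± 0.551 CPM (SD, n = 3). Red-pulp macrophage markers fell in 7 of 12 genes, with the other 5 not called (summed level 164 to 173 CPM in spleen, 102 to 106 CPM in mLN), with the iron exporter gene Slc40a1 at -3.40 and Hmox1 at -1.999. Of the markers of sinus and marginal-zone macrophages 3 of 3 tested rose (2.31 to 2.93 CPM in spleen, 42.1 to 43.0 CPM in mLN). Marco was at 5.81, and Cd209b, at 0 counts in spleen, was at least 67.8-fold higher. Whether marginal-zone macrophages of the spleen were recovered in the sort was not tested. The part of macrophages in the levels of Csf1r and Lyz2, which they express too, was not tested.

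Conventional dendritic cell markers fell in 6 of 10 genes and rose in 1 (240.4 to 247 CPM in spleen, 175 to 188 CPM in mLN), with Xcr1 at -2.33, Clec9a at -2.29 and Itgae at 1.70. Migratory dendritic cell markers rose in 6 of 7 tested genes and fell in 1 (462 to 485 CPM in spleen, 591 to 645 CPM in mLN), with Aldh1a2 at 4.09, Fscn1 at 3.28 and Ccl5 at -0.58. Most of these sums came from Ccl5 (322 CPM in spleen, 216 CPM in mLN) and Ccr7 (139 and 284 CPM), so they mainly follow these genes. Plasmacytoid markers fell in 3 of 6 genes and rose in 2 (181 to 190.3 CPM in spleen, 155 to 158 CPM in mLN), with Siglech at -1.06, Ccr9 at 1.59, Bst2 at 0.63 and Cox6a2 at -1.84, whose call was lost without spleen replicate 3 (adjusted p = 0.0786). Tcf4 was the largest part of the plasmacytoid sums (127 CPM in spleen, 64.1 CPM in mLN). Which cells gave the counts of these dendritic cell markers, Itgae, Ccr7, Ccl5 and Ccr9 among them, was not tested. The 8 T-cell markers rose, from 1075 to 1090 CPM in spleen to 2258 to 2307 CPM in mLN, led by Trat1 and Lat. The 8 B-cell markers fell, from 5887 to 6033 CPM in spleen to 3410 to 3464 CPM in mLN, led by Blk and Fcrla. CPM is a share of all RNA in the sort, and the part of these shifts in the values of the 10 genes was not tested.

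The genes with the most similar pattern to each subset gene were sought among 11569 others of at least 1 CPM, by the root mean square difference of centred log2 CPM over the 6 libraries. This measure is set mostly by the difference between the tissues. Closest to Fn1 were Cr2 (0.0298) and Edaradd (0.0504), and closest to F13a1 were Ska1 (0.0554) and Optn (0.0689). Closest to Cd14 were Siah1b (0.104) and Asap3 (0.169). Closest to Ace were Hmgb3 (0.0609) and Rgs18 (0.0641), to Treml4 Aurka (0.0444) and Tenm4 (0.0696), and to Adgre4 Slamf7 (0.0251) and Klrk1 (0.0327). No member of the 10 genes and no gene of the monocyte lists was among these 12.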

How the data were processed

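Per the labels' protocols, RNA of sorted CD45+ cells was extracted with a phenol-based reagent, column-cleaned and made into directional polyA libraries. Per the submitters' processing notes, STAR, RSEM and build mm10 were used; of versions, annotation and strand setting these notes say nothing. The authors deposited, per gene and library, an expected count (tested here after rounding), an effective length (used in 1 alternative) and a TPM value (used to compare levels between genes). GENCODE M21 (GRCm38) gave symbols for 55227 of 55487 identifiers and gene extents, 1-based.

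Genes passing filterByExpr (14427) were scaled with TMM and tested with edgeR 4.0.16 (quasi-likelihood, robust, tissue as the only term, R 4.3.3), with Benjamini-Hochberg adjustment over all of them and calls at an adjusted p under 0.05. CPM is TMM-scaled. In log2 CPM the prior count was 2. The SE comes from the F statistic. The fit was tested on simulated data. Alternatives were DESeq2 1.42.0, its size factors, other filters, an effective-length offset, composition genes left out, a replicate block and leaving out each library. The genes and lists were chosen with earlier results of these data known. From each list the text names the 2 called genes that rose most and the 2 that fell most; Nr4a1, Cx3cr1, Csf1, Spi1, Tlr4, Ctsg and Ly6g were added after their values were seen. For each subset gene the 2 most similar genes were named, leaving out T-cell receptor and immunoglobulin segments, predicted genes and pseudogenes. Reads carry no molecular identifiers, so floors cover counting error only. A gene that the rule takes is not reported here.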

Additional observations from a re-analysis of the deposited data

How the results depend on the processing

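The count of all genes called was 6569, and 9 of the 10 monocyte genes were among them. With DESeq2 in place of edgeR, DESeq2 size factors, no filter, composition genes (haemoglobin, antigen receptor, ribosomal protein and mitochondrial genes) left out or the effective-length offset, 9 of the 10 were again called, and 10 with the stricter filter. Cd14 passed the stricter filter through its spleen libraries only. The count of all genes called was lowest with the offset (4645). Leaving out 1 library gave 5854 to 6322 genes and 9 to 10 of the 10. Over 13 alternatives the 10 genes kept their downward direction, and 3 settings moved Cd14 past the threshold. Fn1 ranged from -1.58 to -1.41, Ace from -1.97 to -1.88, F13a1 from -1.97 to -1.65 and Treml4 from -1.27 to -0.96 on the log2 scale. The difference in the classical to patrolling balance was -0.21, and -0.27 to -0.16 on leaving out 1 library. It was -0.23 and -0.19 with prior counts of 0.5 and 5, -0.18 from summed CPM and -0.20 from TPM. Libraries with the same replicate number showed little shared deviation (correlations 0.0267, 0.0275 and -0.0081). With 3 libraries a tissue this cannot settle whether the numbers mark shared animals. A replicate block gave 6455 genes, 9 of the 10 and the same balance. Among the other named genes 10 values lost and 3 gained a call. Depth limits Cd14 most, at 12 to 51 counts a library.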
